A study of Mus musculus with 4 samples.

Results

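Complex II, cytosolic aconitase and the assembly of iron-sulfur clusters were followed through 8 mouse genes: the subunits Sdha, Sdhb, Sdhc and Sdhd, the aconitase gene Aco1, and the assembly genes Nfs1, Iscu and Glrx5. They form a group because superoxide attacks the clusters of such enzymes. All probe sets that the platform annotation gives to these symbols alone were used, 17 of 45037 probe sets. The 8 genes stand among 18193 genes that have a probe set with 1 symbol. RNA of heart and of muscle was hybridised to oligonucleotide arrays, 1 array for each genotype and tissue: d/d heart and f/f heart, then muscle of d/d and of f/f mice. In d/d mice both copies of Sod2, the gene of the mitochondrial superoxide dismutase MnSOD, were deleted by an MCK-Cre transgene, which acts in cardiac and skeletal myocytes, and f/f mice carried the floxed gene in both copies and served as controls. Fibroblasts, vessels and other cells of the tissue are thus outside the reach of the promoter. The labels name neither the muscle, nor the age, nor the number of animals behind an array, and do not say whether f/f mice carried the transgene.

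Iron-sulfur clusters are made in mitochondria. The desulfurase Nfs1 takes sulfur from cysteine, the scaffold protein Iscu holds the nascent cluster, and the glutaredoxin Glrx5 passes it on to recipient proteins. Complex II, succinate dehydrogenase, joins the tricarboxylic acid cycle to the respiratory chain: Sdha carries the flavin that oxidises succinate, Sdhb the clusters that conduct the electrons, and Sdhc and Sdhd anchor the enzyme in the inner membrane. Aco1 is an aconitase while it holds a cluster and an RNA-binding regulator of iron genes, IRP1, when it has lost it. Superoxide destroys exposed clusters of this kind, and loss of aconitase and complex II activity is a known feature of tissue without MnSOD. Arrays measure transcripts and not these activities.

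Promoters of Nfs1 and Sdha, the genes with the widest heart differences, are shown with those of Sdhd, another complex II gene, and of Glrx5, which read nearly alike in all 4 groups. Each is the 250 bases before the annotated start from RefSeq (build GRCm38.p6), written 5′ to 3′, with capitals at matches to the motifs searched. They lie at chr13:74350241-74350490 (minus strand) for Sdha, chr2:156144187-156144436 (minus) for Nfs1, chr9:50603850-50604099 (minus) for Sdhd and chr12:105032368-105032617 (plus) for Glrx5.
Sdha: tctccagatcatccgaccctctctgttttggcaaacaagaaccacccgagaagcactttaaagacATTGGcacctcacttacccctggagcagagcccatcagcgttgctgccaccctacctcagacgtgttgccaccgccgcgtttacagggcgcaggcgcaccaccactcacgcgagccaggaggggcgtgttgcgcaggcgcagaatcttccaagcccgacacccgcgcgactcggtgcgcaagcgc
Nfs1: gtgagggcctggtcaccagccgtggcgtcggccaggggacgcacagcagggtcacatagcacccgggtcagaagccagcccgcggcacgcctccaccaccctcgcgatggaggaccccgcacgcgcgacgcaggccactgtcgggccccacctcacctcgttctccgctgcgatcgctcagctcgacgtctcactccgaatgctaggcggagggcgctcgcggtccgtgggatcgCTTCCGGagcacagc
Sdhd: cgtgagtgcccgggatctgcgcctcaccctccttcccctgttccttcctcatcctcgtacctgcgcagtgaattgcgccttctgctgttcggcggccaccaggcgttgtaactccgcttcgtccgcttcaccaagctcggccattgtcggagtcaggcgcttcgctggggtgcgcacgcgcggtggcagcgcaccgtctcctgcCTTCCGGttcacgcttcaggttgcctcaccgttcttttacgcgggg
Glrx5: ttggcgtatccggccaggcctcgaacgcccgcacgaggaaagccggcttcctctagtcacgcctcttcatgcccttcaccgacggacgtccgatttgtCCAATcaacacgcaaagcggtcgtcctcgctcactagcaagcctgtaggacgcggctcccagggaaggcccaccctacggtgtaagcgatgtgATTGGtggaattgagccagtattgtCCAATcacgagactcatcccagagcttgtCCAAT

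Matches were sought on both strands in the promoters of the 6 of 8 members that were matched in the RefSeq table, all but Sdhc and Iscu. CCGGAAG, the core bound by ETS factors such as GABPA, had 1 match in Nfs1 and 1 in Sdhd and occurred in 6.91% of 32851 promoters of the same length. CCAAT had 4 matches in Glrx5 and 1 each in Sdha and Sdhb, and occurred in 33.8%. AAGGTCA, the core bound by the ERR receptors, had 0 matches in the 6 promoters and occurred in 4.08%. The Aco1 promoter matched 0 of the motifs. A match describes the letters in this window only.

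Signals were scaled to a common 2% trimmed mean and floored at 7.51, below which a signal was taken as background. On the 4 arrays, 58.0% to 61.1% of probe sets lay above that floor, and the d/d and f/f arrays of a tissue correlated at 0.973 in heart and 0.978 in muscle across probe sets on the log2 scale. Differences are d/d minus f/f on the log2 scale. As 1 array stands for each group, no difference within a tissue has a replicate error or a test. The SD of this difference among probe sets of a gene, 0.388 in heart and 0.400 in muscle, is used as a technical yardstick in its place, and it leaves out the variation between animals. It pools probe sets of all signal levels. Among probe sets within the brightness range of the members the SD was 0.193 in heart and 0.155 in muscle, a range set after seeing the data. The 4 Sod2 probe sets averaged -0.62 ± 0.47 in heart and -0.21 ± 0.21 in muscle (SD over probe sets). Where they lie relative to the deletion is not stated, so they do not check the genotype.

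The labelled tissues matched their defining markers. The summed signal of 9 cardiac markers was 44922 in d/d heart against 44707 in f/f heart and 2616 in d/d muscle against 3644 in f/f muscle, with Ryr2 and Myl7 at the floor in both muscles. The sum of 9 skeletal muscle markers was 8801 in d/d heart against 5868 in f/f heart and 76347 in d/d muscle against 71457 in f/f muscle, with the fast troponins Tnnt3 and Tnni2 at the floor in both hearts. Cell type markers also moved with genotype. The similar cardiac sums of the hearts hide moves in both directions, with 6 of 9 markers lower and 3 higher in d/d. Ryr2 was 2.24-fold lower in d/d heart and Nppa 1.85-fold higher. Adipoq, an adipocyte marker, was 4.47-fold lower in d/d heart and 2.30-fold lower in d/d muscle. Its d/d heart signal of 10.4 was near the floor, and of 6 adipocyte entries only 2 were above the floor on any array. In heart, skeletal actin Acta1 was 3.11-fold higher in d/d, at 4668 in d/d heart against 1499 in f/f heart, while Casq1 was 2.22-fold lower, and Pvalb and Atp2a1 were at least 2.09-fold and 3.20-fold lower, at the floor in d/d heart. In heart, 6 of 7 fibroblast markers were higher in d/d, with a summed signal of 9348 in d/d heart against 5778 in f/f heart, and 7 of 8 macrophage markers were higher, at 2494 in d/d heart against 1932 in f/f heart. The macrophage marker Cd163 went the other way, 2.46-fold lower in d/d heart. The 6 endothelial markers summed to 1710 in d/d heart against 1337 in f/f heart, with 4 of 6 higher. In muscle the sums ran the other way, with 4485 in d/d against 7014 in f/f for fibroblast markers and 766 in d/d and 1198 in f/f for macrophage markers, and 6 of 7 measured cardiac markers were at least 2-fold lower in d/d. Spike-in controls had a median d/d to f/f ratio of 1.229 over 45 probe sets on the heart arrays and 0.9285 on the muscle arrays. The part of these shifts in the differences below was not tested.

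In heart, the complex II transcripts were lower in d/d than in f/f on every probe set above the floor, and Nfs1 was lower by the widest margin of the 8 genes. The mean difference of the 4 complex II genes was -0.27 ± 0.15 (SD over genes). Glrx5 and Aco1 differed by 0.04 and 0.05. None of the 8 members reached 2-fold in either direction, against 3.94% of 13836 genes 2-fold or more higher and 4.22% 2-fold or more lower. In whole tissue, fewer cells of a type and less RNA per cell cannot be told apart.

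**Figure D1:**
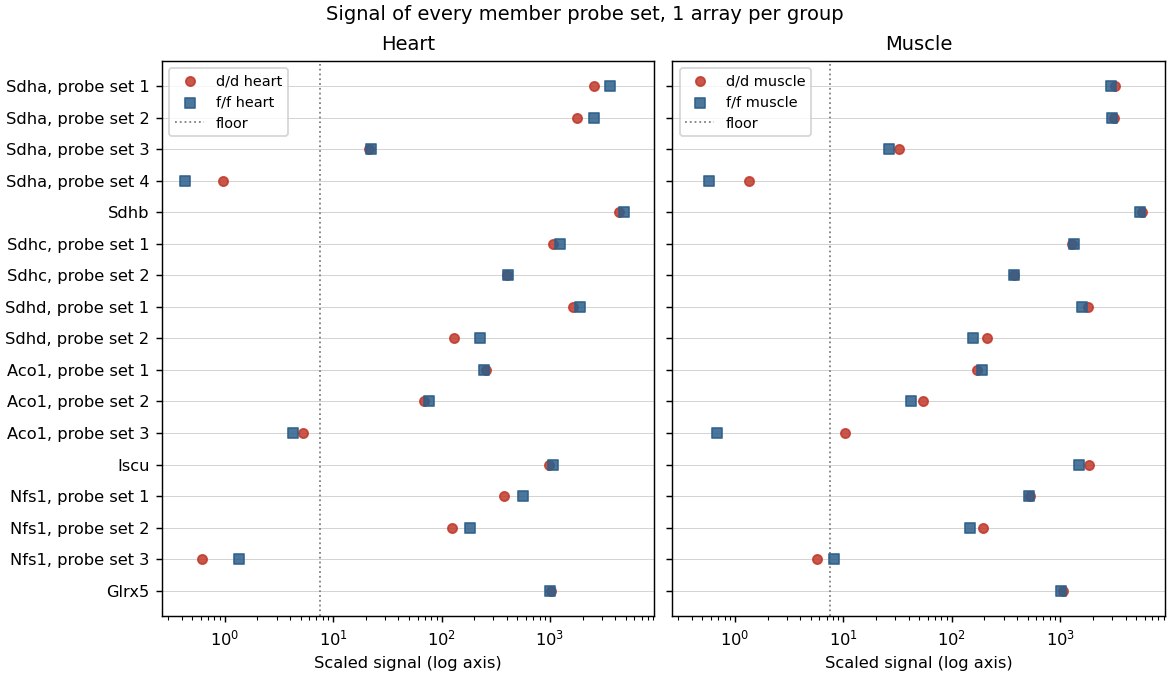
Scaled signal (log axis) of every probe set of the 8 genes in heart (left) and muscle (right), 1 point per array, d/d as circles and f/f as squares, with the floor at 7.51 as a dotted line. In heart the d/d points of Sdha and Nfs1 lie left of the f/f points on both of their brightest probe sets. In muscle these pairs nearly coincide or the d/d point lies to the right, while for the brightest Aco1 probe set it lies to the left.

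Sdha, the flavoprotein subunit, read 2533 in d/d heart against 3544 in f/f heart on its brightest probe set (1426688_at). Its second probe set (1426689_s_at) read 1771 in d/d heart against 2533 in f/f heart. The differences were -0.48 and -0.52, both past the yardstick. The third, dim probe set (1433293_at) read 21.2 in d/d heart against 22.2 in f/f heart, a difference of -0.07, and the fourth was under the floor on all 4 arrays.

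Sdhb, the cluster-bearing subunit, read 4349.7 in d/d heart against 4854 in f/f heart, a difference of -0.16 on its single probe set. Sdhc, a membrane anchor, read 1065 in d/d heart against 1241 in f/f heart, a difference of -0.22, and 403 in d/d heart against 411 in f/f heart on a dimmer probe set, a difference of -0.03. Sdhd, the other anchor, read 1620.1 in d/d heart against 1873 in f/f heart, a difference of -0.21. On the probe sets that represent them, these 3 subunits lay below f/f by less than the yardstick of 0.388, while Sdhc and Sdhd were past the narrower 0.193 of the brightness range. The dimmer Sdhd probe set read 129.7 in d/d heart against 226 in f/f heart, a difference of -0.80. This was the lowest of the 14 member probe sets that were above the floor on all arrays. That probe set carries the _x_at suffix, which marks probes that can share sequence with other transcripts, so its value is uncertain. The same limit applies to the dimmer Sdhc probe set, also _x_at. The second Sdha probe set carries the _s_at suffix, and an alternative left out both kinds.

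Among the assembly genes, Nfs1, the sulfur donor, read 374 in d/d heart against 567 in f/f heart, a difference of -0.60. Its second probe set read 125 in d/d heart against 183 in f/f heart, a difference of -0.55. Both were past the yardstick, and a further Nfs1 probe set was under the floor in both hearts. The scaffold Iscu read 988 in d/d heart against 1076 in f/f heart, a difference of -0.12. Glrx5 read 1022 in d/d heart against 991 in f/f heart, a difference of 0.04. The assembly genes therefore did not share a common shift, and their mean was -0.23 ± 0.33 (SD over 3 genes).

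Aco1 read 258 in d/d heart against 248 in f/f heart on its brightest probe set, a difference of 0.05. A second read 68.0 in d/d heart against 75.7 in f/f heart, a difference of -0.15. The sign depended on the probe set, the brighter of which carries the _x_at suffix, and both values were within the yardstick. The third Aco1 probe set was under the floor in both hearts.

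Over the 8 members the median heart difference was -0.18, beside -0.05 over all 13836 genes measured and -0.03 over the 2505 genes within the brightness range of the members. Below 0 lay 6 of 8 members, against 54.6% of all genes. Past the yardstick on the low side lay 2 of 8, Sdha and Nfs1, against 22.8% of all genes and 14.7% of those in the brightness range. A count of 2 of 8 is close to the share over all genes. With the SD of 0.193, 4 of 8 were past it on the low side, Sdha, Sdhc, Sdhd and Nfs1, against 29.6% of the 2499 genes in that range that were above the floor on all arrays. By probe set, 12 of the 14 above the floor on all arrays were lower in d/d heart, against 53.3% of all 18319 such probe sets with a gene name and 53.3% of those in the brightness range. Past the yardstick of 0.388 on the low side lay 5 of the 14, against 20.8% of all and 15.0% of those in the range. The 14 probe sets belong to 8 genes and are not independent.

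**Figure D2:**
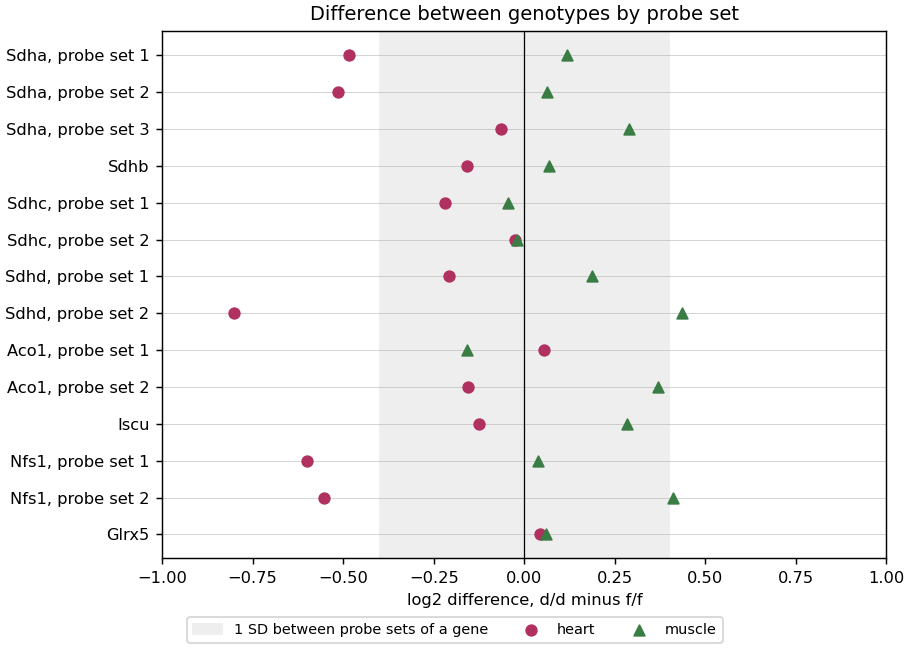
The log2 difference, d/d minus f/f, for the 14 member probe sets above the floor on all arrays, in heart (circles) and muscle (triangles), with a band of 1 SD between probe sets of a gene (0.400, the wider of both tissues). In heart 5 points lie left of the band and 0 right of it, and in muscle 2 points lie right of it and 0 left.

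In muscle the same transcripts differed by less than in heart for 5 of 8 members, and the direction depended on the scaling. Of the 8 members 0 reached 2-fold, against 2.64% of 14256 genes higher and 3.25% lower, and 0 were past the yardstick of 0.400 on the probe set that represents the gene, against 15.6% of all genes above it and 18.1% below its negative. Above 0 lay 6 of 8, against 49.6% of all genes, and the median was 0.06, beside -0.003 over all genes and 0.02 in the brightness range. On the deposited scale 5 of 8 were below 0 with a median of -0.03, and with scaling to the median of signals above the floor 5 of 8 with a median of -0.007. With the SD of 0.155, Sdhd and Iscu were past it on the high side and Aco1 on the low side. Of the 2499 genes in that range above the floor on all arrays, 22.7% lay above this SD and 21.1% below its negative.

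Sdha read 3167 in d/d muscle against 2916 in f/f muscle, a difference of 0.12, and the second and the third probe set differed by 0.06 and 0.29. Sdhb read 5703 in d/d muscle against 5440.4 in f/f muscle, a difference of 0.07 that turned to below 0 under 3 of 9 alternatives, among them the deposited scale. Sdhc read 1293 in d/d muscle against 1335 in f/f muscle, a difference of -0.05. Sdhd read 1802 in d/d muscle against 1584 in f/f muscle, a difference of 0.19, and its dimmer probe set read 209.9 in d/d muscle against 155 in f/f muscle, a difference of 0.44. The mean over the complex II genes was 0.08 ± 0.10 (SD over 4 genes).

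Iscu showed the widest muscle difference of the members, at 1829.8 in d/d muscle against 1504 in f/f muscle, or 0.28. Nfs1 read 529 in d/d muscle against 515 in f/f muscle, a difference of 0.04, and on its second probe set 193 in d/d muscle against 146 in f/f muscle, a difference of 0.41. Glrx5 read 1065 in d/d muscle against 1022 in f/f muscle, a difference of 0.06. Iscu was above 0 under every scaling tried, while Nfs1 and Glrx5 were below 0 on the deposited scale and with scaling to the median of signals above the floor. Aco1 read 172 in d/d muscle against 191 in f/f muscle, a difference of -0.16, but 54.4 in d/d muscle against 42.2 in f/f muscle on its second probe set, a difference of 0.37. The third Aco1 probe set was above the floor in d/d muscle alone, at 10.4.

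Set side by side, heart and muscle differed in sign for 6 of 8 members. On the deposited scale and with the median scaling this held for 3 of 8, Sdha, Sdhd and Iscu, and with quantile normalization for 5 of 8. The share of all genes that differed in sign was not computed, so these counts are not a result about the members. Of all genes, 54.6% were below 0 in heart and 49.6% above 0 in muscle. Lower in d/d heart and higher in d/d muscle were 5 of 8, namely Sdha, Sdhb, Sdhd, Iscu and Nfs1, against 27.4% of all genes measured in both tissues and 31.1% of those in the brightness range. On the deposited scale these were 3 of 8 members, against 23.3% of all genes, and with the median scaling 3 of 8, against 28.4%. The heart difference minus the muscle difference was -0.64 for Nfs1, -0.60 for Sdha, -0.41 for Iscu and -0.40 for Sdhd, with a median of -0.31 over the 8 members, beside -0.03 over all genes. With 1 array per group this contrast leaves no residual and was not tested. A scaling by 1 factor per array enters it as a single shift common to all genes above the floor. Quantile normalization does not, and moves genes by different amounts.

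**Figure D3:**
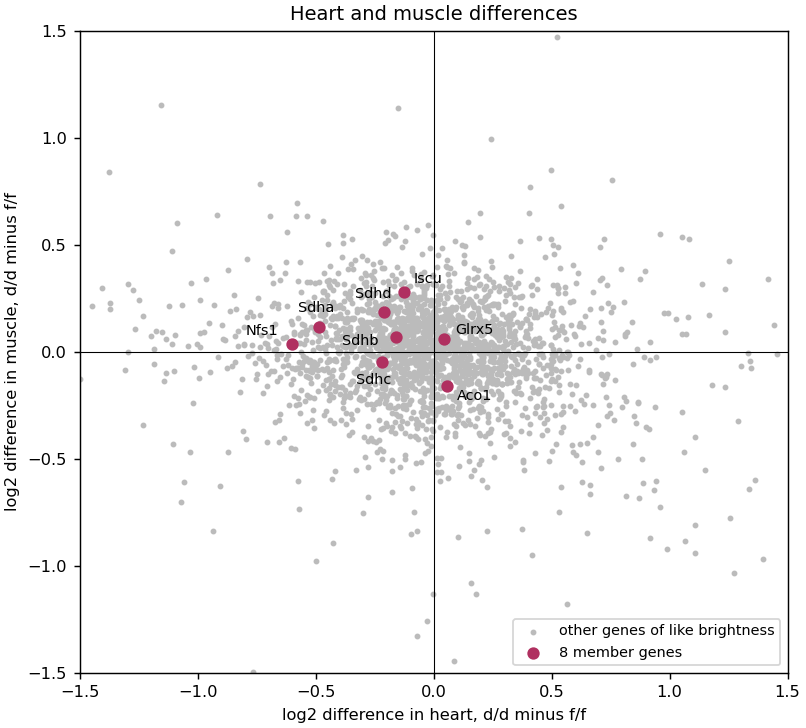
The log2 difference, d/d minus f/f, in heart (horizontal axis) against that in muscle (vertical axis) for the 8 members and for 2497 other genes in the same brightness range, 45 of which lie outside the axes. Of the members 5 lie in the upper left field, lower in d/d heart and higher in d/d muscle, inside the cloud of the other genes.

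The genotype effect averaged over both tissues was fitted with limma with tissue as a block. For each member it was smaller in size than its SE, which does not show that it is 0. It was -0.28 (SE 0.29) for Nfs1, -0.18 (SE 0.29) for Sdha and 0.08 (SE 0.27) for Iscu, each with an adjusted p of 0.9998 (limma, Benjamini-Hochberg over 13497 genes). The fit called 0.0% of the genes in either direction, with 570 (4.22%) at an unadjusted p under 0.05. It has 1 residual degree of freedom and counts a difference between the tissues as error, and on simulated data it recovered 0% of genes changed by 1 and 28.0% of those changed by 2 on the log2 scale. The labels do not tie the arrays to separate animals, and these p-values do not measure the spread between animals. They set the averaged effect against its difference between the tissues, with a variance that limma pools in part over all genes. The genotype SE of Glrx5 was 0.260 in this fit and 0.019 with no filter.

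No member differed 2-fold between heart and muscle on the scaled signals. In d/d, heart minus muscle was between -0.89 for Iscu and 0.59 for Aco1. The median was -0.30, beside 0.01 over all genes and -0.14 in the brightness range of the members. Members below 0 were 7 of 8, against 49.3% of all genes and 1439 of the 2508 genes in that range. Relative to the median of that range, the member median was -0.16, with 6 of 8 below 0. Past 2-fold were 0 of 8, against 15.1% of 14124 genes higher and 10.5% lower in heart. In f/f, heart minus muscle was between -0.48 for Iscu and 0.37 for Aco1. The median was 0.05, beside 0.08 over all genes and -0.06 in the brightness range. Members below 0 were 4 of 8, against 45.6% of all genes and 1371 of the 2508 in that range. Again 0 of 8 were past 2-fold, against 12.1% of 14364 genes higher and 8.3% lower. Sdha lay at 2533 in d/d heart and 3167 in d/d muscle, but at 3544 in f/f heart and 2916 in f/f muscle. Nfs1 lay at 374 in d/d heart and 529 in d/d muscle, but at 567 in f/f heart and 515 in f/f muscle. The order of the tissues was thus opposite in d/d and f/f on the probe set that represents each. Sdhd, at -0.15 in d/d and 0.24 in f/f as heart minus muscle, made 3 of 8 members. The share over all genes was not computed. For Nfs1 the opposite order held under all 8 alternatives fixed at the start. For Sdha it was lost on the deposited scale, with 0.14 in d/d and 0.71 in f/f as heart minus muscle, and with the median over probe sets. For Sdhd it was lost on the deposited scale and with quantile normalization. On the second Sdha probe set muscle was higher in both, by -0.84 in d/d and -0.26 in f/f as heart minus muscle. On the deposited scale 2 members in d/d and 1 in f/f were below 0, the d/d median was 0.17, and Aco1 in d/d was past 2-fold at 1.05. The d/d and f/f values here are the same 4 arrays as above, arranged by tissue.

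**Figure D4:**
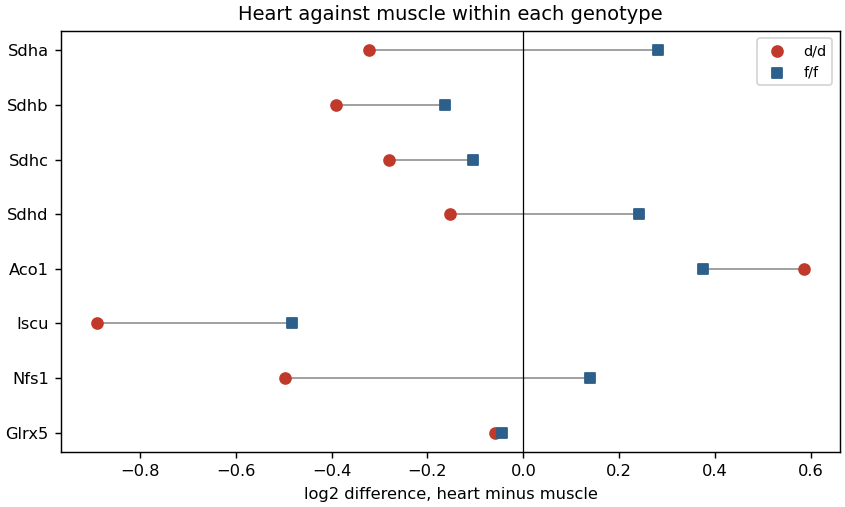
The log2 difference, heart minus muscle, for the 8 members in d/d mice (circles) and f/f mice (squares), joined by a line, 1 array per group. The d/d point lies left of the f/f point for 7 genes and right of it for Aco1.

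Averaged over genotypes, the tissue effect in the same limma fit was -0.69 (SE 0.27) for Iscu, higher in muscle, with an adjusted p of 0.153, and 0.48 (SE 0.26) for Aco1, higher in heart, with an adjusted p of 0.276 (limma, Benjamini-Hochberg). The others had adjusted p-values of 0.517 to 0.971. None passed 0.05, at which 7.97% of genes passed as higher in heart and 5.66% as higher in muscle, with 32.1% at an unadjusted p under 0.05. Of these calls, 1076 were higher in heart and 764 higher in muscle, against 2839 and 502 on the deposited scale and 1853 and 726 with scaling to the median of signals above the floor.

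The wider pathway was read from lists chosen by function, each gene on its brightest probe set. Their counts stand beside 54.6% of all genes below 0 and a median of -0.05 in heart, and 49.6% above 0 and a median of -0.003 in muscle. The iron-sulfur subunits of complexes I and III and the electron transfer enzyme Etfdh had the lowest list median in heart, at -0.37, with 7 of 7 below 0 and 0 at 2-fold. Ndufs1, which holds clusters of complex I, read 1719 in d/d heart against 2546 in f/f heart, a difference of -0.57. Etfdh, which feeds electrons from fatty acid oxidation to ubiquinone, read 1489 in d/d heart against 2193 in f/f heart, a difference of -0.56, while Ndufv2 and the Rieske protein gene Uqcrfs1 differed by -0.06 and -0.22. In muscle this list had a median of 0.06, with 5 of 7 above 0.

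Other mitochondrial assembly genes were mixed. Of 21 entries 16 were found on the arrays, with a heart median of -0.10, 10 below 0 and 0 at 2-fold, and a muscle median of 0.02 with 8 below 0. The lowest in heart were Abcb8, an inner membrane transporter, at -0.53, and Bola1 at -0.43, and the highest were the mitochondrial iron importer Slc25a37 at 0.42 and Lyrm4, the partner of Nfs1, at 0.21. Lyrm4 read 140.2 in d/d heart against 121 in f/f heart, the opposite direction to Nfs1. The scaffold homolog Nfu1 differed by -0.003 in heart. The 4 complex II assembly factors had medians of -0.14 in heart and -0.15 in muscle, with Sdhaf4, which helps to join Sdha to Sdhb, at -0.29 in heart and Sdhaf1 at 0.14.

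The cytosolic assembly genes had a median of 0.12 in heart over 10 genes, with 6 above 0, and of 0.02 in muscle. Nubp1 and Nubp2, the scaffold pair that starts this pathway, were highest in heart. Nubp1 read 56.5 in d/d heart against 29.8 in f/f heart, a difference of 0.92, and Nubp2 read 107 in d/d heart against 73.4 in f/f heart, a difference of 0.55. At the other end were Mms19, which delivers clusters to nuclear enzymes, at -0.52 and Glrx3 at -0.42, near the floor.

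Of the other iron-sulfur enzymes, 21 of 23 entries were found and 20 measured in heart, with a median of -0.24 and 13 below 0. Rtel1, a helicase, at -0.85 and Nthl1, a repair glycosylase, at least 1.99-fold lower in d/d heart were near the floor. Mutyh, another repair glycosylase, was at least 2.01-fold higher in d/d heart, at 15.1 against a floored f/f signal. In muscle the primase subunit Prim2 read 18.8 in d/d against 9.28 in f/f, 2.03-fold higher, and Mocs1, of molybdenum cofactor synthesis, was at least 2.15-fold lower. Lias, which makes lipoic acid, read 477 in d/d heart against 402 in f/f heart, a difference of 0.25.

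**Figure D5:**
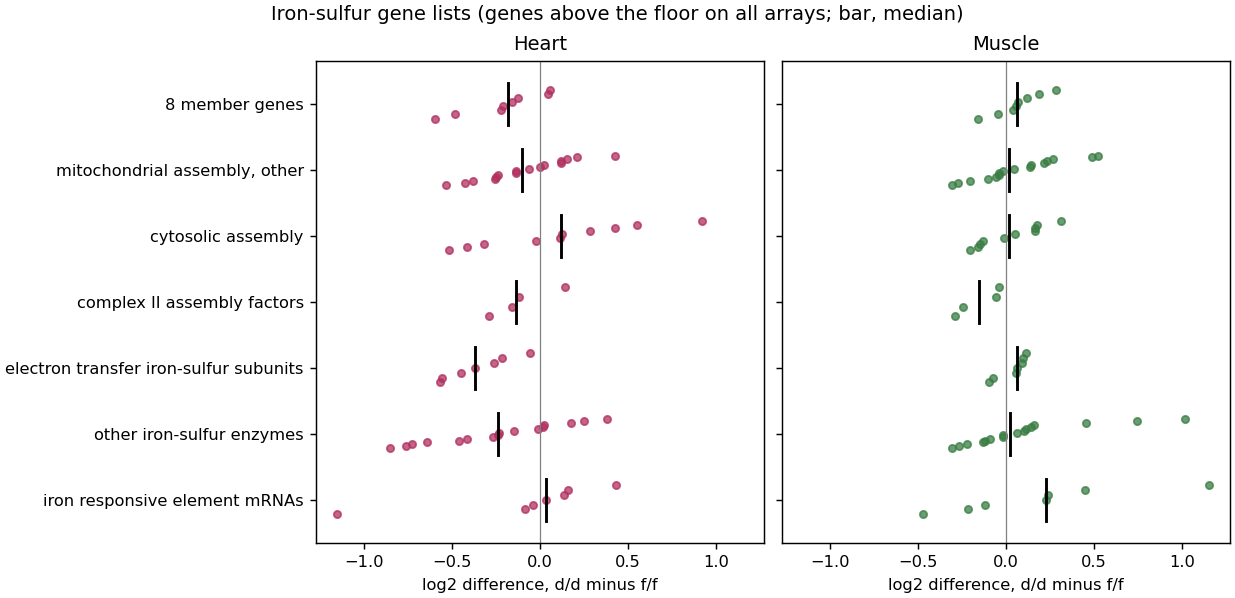
The log2 difference, d/d minus f/f, of the 8 members and of the genes of each pathway list that were above the floor on all arrays, in heart (left) and muscle (right), with a bar at the median of the genes plotted. In heart the electron transfer subunits lie all left of 0, and in muscle they straddle it.

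A list of iron genes, among them mRNAs with iron responsive elements that Aco1 binds as IRP1, did not move as a block. Over 7 genes, with Ireb2 counted among them, the medians were 0.03 in heart and 0.23 in muscle. Transcript amounts do not measure the binding of IRP1 or the translation of these mRNAs. Slc40a1, the iron exporter ferroportin, read 116 in d/d heart against 258 in f/f heart, and 529 in d/d muscle against 238 in f/f muscle, differences of -1.16 and 1.15. Tfrc, the transferrin receptor, read 382 in d/d heart against 284 in f/f heart, and 641 in d/d muscle against 888 in f/f muscle, differences of 0.43 and -0.47. The ferritin heavy chain Fth1 differed by -0.04 in heart and 0.23 in muscle, and Ireb2, which encodes the second iron regulatory protein, by -0.09 and -0.12. The direction of Slc40a1 and Tfrc was thus opposite between the tissues, with Tfrc the reverse of Slc40a1 in each.

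The genes whose pattern over the 4 arrays lay nearest the complex II mean were Ndufs7, Fkbpl, Gm12338, Samm50 and Zbtb2, by the root mean square difference of centred log2 profiles, 0.01 for Ndufs7 and 0.02 to 0.03 for the others. Ndufs7 encodes an iron-sulfur subunit of complex I and read 2627 in d/d heart, 3157 in f/f heart, 3218 in d/d muscle against 3077 in f/f muscle. Nearest Aco1 were Fgfr2, Gpn1, Sema3g, Mbtps1 and Dop1a, at 0.01 to 0.02. With 4 arrays many genes come close: 477 of 10530 lay within 0.1 of the complex II profile and 316 within 0.1 of Aco1.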

How the data were processed

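The values used are the deposited signal intensities on a linear scale, for 45101 probe sets, 64 of them controls. The steps from scan to intensity that the authors took are not given in the sources used here. Each array was scaled to the mean of the 4 arrays' 2% trimmed means, controls left out. Signals under the floor, the mean 40th percentile, were set to it and log2 was taken. Gene names came from the platform annotation, in which 34945 probe sets had 1 symbol, 932 several and 9160 were not listed. A gene was represented by its brightest probe set. A gene was measured in a comparison when the higher array was above the floor, and called at 2-fold or more. A signal at the floor makes a fold a lower bound. The number of arrays limits the precision. The genotype and tissue effects were fitted with limma 3.58.1 in R 4.3.3 over the genes that passed the floor on 2 or more arrays, after a check on simulated data; the rest used Python 3.11.15. The members and lists were chosen with earlier results of these data known. The genes named are the members, Sod2, list genes past 2-fold or at the ends of a list in heart, and the 5 nearest patterns. Lias, Nfu1 and Fth1 were named for their role after their values were seen. Of the listed entries, those without a single-symbol probe set were not analysed here. Alternatives were other floors, a pseudocount of 16 in place of the floor, other scalings, other probe set choices and no filter.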

Additional observations from a re-analysis of the deposited data

Results flagged for a closer look

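For 6 members the d/d array lay above the f/f array in 1 tissue and below it in the other. On the deposited scale and with scaling to the median of signals above the floor this held for 3, Sdha, Sdhd and Iscu. The share of all genes for which it held was not computed. The heart difference minus the muscle difference on the log2 scale was -0.60 for Sdha, -0.23 for Sdhb, -0.40 for Sdhd, 0.21 for Aco1, -0.41 for Iscu and -0.64 for Nfs1. The difference between the tissues was not tested, since each group holds 1 array. The SD of this quantity between probe sets of a gene was 0.540 over all signal levels, which Sdha and Nfs1 exceeded in size, and 0.250 within the brightness range of the members, which Sdhd and Iscu exceeded as well. In that range 29.5% of 2499 genes lay below 0 by more than the SD of 0.250, and 11.2% by more than that of 0.540.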

How the results depend on the processing

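In heart, Sdha, Sdhb, Sdhc, Sdhd, Iscu and Nfs1 stayed below 0 under all 9 alternatives. Nfs1 ran from -0.76 to -0.55, Sdha from -0.64 to -0.29 and the median of the members from -0.34 to -0.15, and 6 to 8 members were below 0. Aco1 ran from -0.15 to 0.08 and Glrx5 from -0.12 to 0.07. In muscle the median ran from -0.03 to 0.24. There 5 members were below 0 on the deposited scale and with scaling to the median of signals above the floor, and 1 with the median over probe sets or without the _x_at and _s_at probe sets, where Aco1 turned to 0.37. For heart minus muscle on the deposited scale, 2 members were below 0 in d/d and 1 in f/f, since that scale moved the median of all genes to 0.45 in d/d and 0.47 in f/f. In f/f, 1 member was also below 0 with quantile normalization and with the median scaling. That median scaling moved the median of all genes to -0.20 in d/d minus f/f in heart, where 397 genes were then 2-fold or more higher and 913 lower, against 545 and 584. On the deposited scale, 203 genes were 2-fold or more higher and 450 lower in muscle, against 376 and 463. For heart minus muscle in d/d, 3748 were then higher and 752 lower, against 2134 and 1485, and in f/f 3420 and 667, against 1741 and 1192. With the median scaling the f/f counts were 2472 and 901. The number of genes past an adjusted p of 0.05 for tissue was 1840 and became 0 with no filter, with 3631 at an unadjusted p under 0.05, and 0 with the floor at the 20th percentile, with 3491. It was 3341 on the deposited scale. The causes were not tested. For genotype it was 0 under every alternative, with 372 to 1220 genes at an unadjusted p under 0.05 (limma). For tissue, the adjusted p of Iscu ran from 0.0708 to 0.525 and that of Aco1 from 0.0554 to 0.424 (limma). The comparison with genes in the brightness range was chosen after seeing the data. The labels give no replicate numbers, and the limma fit of genotype pairs d/d with f/f within each tissue. The SD between probe sets of a gene was about 0.4 over all signal levels and under 0.2 in that range, also set after seeing the data.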
